A study of Mus musculus with 4 samples.

Results

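Circular RNAs (circRNAs) whose back-splice junction joins points at least 100 kb apart in the genome were examined in primary mouse articular chondrocytes with and without interleukin-1β (IL-1β). A member had a junction span, end minus start plus 1, of at least 100000 bp and both ends inside exactly 1 coding gene of RefSeq, with 1 bp of tolerance. Of 40909 circRNAs in the data, 1083 (2.65%) met the rule, and they came from 297 host genes. Another 102 circRNAs reached the span but had no single coding gene around both ends, and these were left out. The rule has a sharp edge and no gap at it: 25 members spanned less than 101 kb, from 100005 bp in Sox5 upwards, and 23 circRNAs inside 1 coding gene spanned at least 99 kb but under 100 kb, up to 99947 bp.

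The cells were cultured chondrocytes of passage 1-3 in serum-containing medium, plated for 24 h before treatment. One group of 2 libraries received recombinant human IL-1β, an inflammatory cytokine, at 10 ng/ml over 24 h, and there were 2 libraries from control cells of the same type. The labels of the controls repeat the treatment text, so control was read from the source label, and strain, age, joint and number of animals are not stated. Separate cultures or animals behind the 2 libraries of a group are not stated, so each p-value reflects the spread of these libraries alone, and that spread may be technical. RNA was depleted of ribosomal RNA and digested with RNase R, which removes linear RNA. Depth was 895774 and 980542 junction reads in the treated libraries, and the controls were deeper at 1198010 and 1203855. Circles came from 5 of 17 chondrocyte marker genes (504.5 and 549.4 CPM in treated, 648.0 and 480.5 in control cells), and the defining genes Sox9, Acan and Col2a1 had none. The other lists gave circles from 7 of 12 fibroblast markers (106 to 332 CPM), 3 of 7 osteoblast (1150 to 1536), 2 of 9 macrophage and leukocyte (28.6 to 52.4), 2 of 7 endothelial (99.3 to 153), 1 of 7 skeletal muscle (0 to 5.99) and 0 of 7 neuron markers. The summed fibroblast level was lower in both IL-1β libraries (140.7 and 105.6 CPM) than in control (255.1 and 331.5), and its part in the results was not tested. Members came from 2 chondrocyte markers (64 and 81 long-span reads in treated, 77 and 59 in control cells) and from 2 osteoblast markers (0 and 13 against 19 and 104 in all), and from no other marker gene. The osteoblast long-span reads were fewer in treated cells, and their part in the results was not tested. CPM here means junction reads per 1000000 of the library's scaled total.

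Back-splicing joins a downstream splice donor to an upstream splice acceptor, so a span of this size needs a transcript in which those sites are far apart, as in genes with very long introns. A circRNA usually keeps its exons and loses the introns between them, so the span is the distance in the genome and not the length of the RNA. A junction read shows only where the ends meet, and which exons or introns lie between them was not measured. Each circle has 1 junction, so reads need no division by length.

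The bases at the ends were read where an end fell inside a RefSeq promoter window, 250 bases before to 50 after an annotated start, on GRCm38.p6, the mm10 assembly. The window could be that of a gene other than the host. Below, this holds for Fars2 (window of Gm40912), Npas3 (Gm35614) and Etv6 (Gm17089, on the opposite strand). No downstream end of a member lay in a window of its own host. They are shown because they are the part of these junctions that the sequence tables at hand cover, and because they let the splice-site letters be read. The circRNA caller and its filters are not stated. Whether these letters were a condition for a junction to be kept is therefore unknown. The capitals mark the AG just before a circle's upstream end, or the GT just after its downstream end, and each line reads 5′ to 3′ on the strand of the circle, with up to 15 bases on each side of the junction end.
Fars2 circRNA.7370, upstream end, chr13:36207612-36207641, plus strand: tttctgctctctcAGgattgcaccgccagt
Hdac8 circRNA.40644, upstream end, chrX:102505281-102505310, minus strand: ttttatatctgtcAGgcaccttttttgaac
Bnc2 circRNA.28022, upstream end, chr4:84610183-84610212, minus strand: cctttgcacttacAGatcaacaaaagagat
Sox6 circRNA.34068, upstream end, chr7:115801595-115801624, minus strand: tcccttcttctgcAGaagaatgtcttccaa
Runx2 circRNA.13437, upstream end, chr17:44814583-44814612, minus strand: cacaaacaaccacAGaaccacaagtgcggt
Col5a1 circRNA.22650, upstream end, chr2:27886435-27886464, plus strand: agcgccgaaggcgAGgtccgcactcctggt
Npas3 circRNA.6099, downstream end, chr12:53831771-53831800, plus strand: ctaggcctctcacaaGTaagtcaaacaatt
Etv6 circRNA.31741, downstream end, chr6:134248790-134248819, plus strand: ttgggagaatagcagGTgagtgagctcagc

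All 12 distinct upstream ends of members that lay in such a window followed an AG, the letters of a splice acceptor, and 4 of 5 downstream ends were followed by a GT, those of a splice donor. The exception was circRNA.31212 of Pdzrn3, with 8 reads, whose downstream end was followed by CT on the strand given. On the opposite strand these letters read AG and stand before that end, as at an acceptor, so the strand given for this circle is uncertain. Among circRNAs under 100000 bp in 1 coding gene, 187 of 193 upstream ends in a window followed an AG (96.9%) and 68 of 69 downstream ends preceded a GT (98.6%). The upstream ends of the circles of Bnc2, a zinc finger gene, and of Sox6, a chondrocyte transcription factor, fell on the very base that RefSeq gives as a transcript start. In Runx2, a transcription factor of bone and maturing cartilage, the end lay 30 bases downstream of an annotated start, and in the collagen gene Col5a1 25 bases downstream. These circles had few reads: circRNA.22650 of Col5a1 had 39, all in control 2, and circRNA.34068 of Sox6 had 13, all in control 2. A promoter sequence was found for 229 of the 297 hosts.

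The members' spans had a median of 136997 bp, and 215 reached 200 kb, 50 reached 300 kb and 11 reached 400 kb. The longest was circRNA.11743 of Lpp, a focal adhesion protein with LIM domains, at 447179 bp (chr16:24442781-24889959, plus strand), with 3 reads in control 2 alone. It was followed by circRNA.38669 of the RNA-binding protein gene Rbms3 at 446781 bp, with 4 reads in IL-1β 1 and 7 in control 1, and circRNA.19707 of the polarity gene Pard3b at 442970 bp, with 9 reads in control 1. Next came circRNA.33664 of the forkhead factor gene Foxp1 at 442567 bp, with 9 reads in IL-1β 1, and circRNA.8285 of the glypican gene Gpc6 at 437889 bp, with 15 reads in control 1. Of these 5, only the Rbms3 circle was read in more than 1 library, and none had reads in both libraries of a group. At the other edge, just above 100000 bp, circRNA.32155 of Snd1, a nuclease-domain protein, had reads in every library (20 and 22 with IL-1β, 26 and 16 in control), and the circles of Sox5, Kcnab1, Myo1d and Babam2 were read in 1 library each, with 6, 14, 6 and 7 reads.

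Host genes were long, with a median of 300244 bp and a range of 113615 to 1997664 bp. Of 2429 coding genes of at least 100000 bp, 1433 gave a circRNA of any span and 297 of those (20.7%) gave a member. The members covered a median of 38.8% of their gene (quartiles 28.1% and 52.9%), and 47 covered at least 75% of it. In 112 members an annotated start of the host lay inside the span. Starts were at hand for only 229 of the 297 hosts, so this count may be too low. Hosts differed in number: 122 had 1 member and 63 had at least 5. Foxp1 had 41, Cdk14, a cyclin-dependent kinase, 28, Exoc4, a subunit of the exocyst that tethers vesicles, 27, and Dennd1a, an activator of Rab GTPases, 26. Atxn1 (ataxin-1, a transcription co-regulator) had 23, Snd1 18, Edil3, a secreted integrin ligand, and Rbms3 16 each, and the protease gene Tasp1 15.

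**Figure D1:**
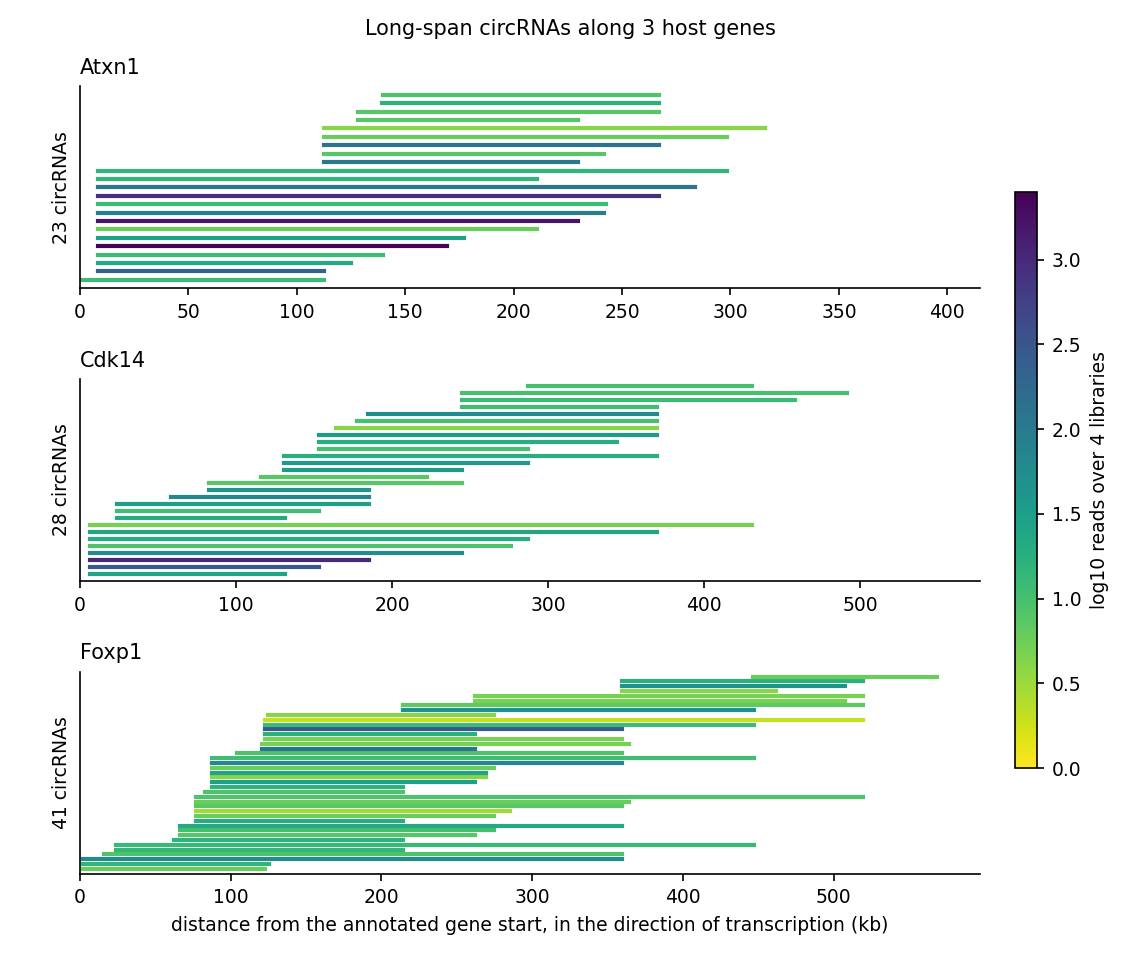
Each line is 1 long-span circRNA of Atxn1 (23), Cdk14 (28) or Foxp1 (41), drawn from its upstream to its downstream end in kb from the annotated gene start, with colour for log10 of the reads over the 4 libraries. In Atxn1 and Cdk14 many circles begin at the same upstream end: 11 of the 23 of Atxn1 at 8.42 kb, and 8 of the 28 of Cdk14 at 6.76 kb. In Foxp1 the upstream end with the most circles serves 7 of the 41.

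Most members shared their ends with other circles. The upstream end was used by another circRNA for 849 members (78.4%), the downstream end for 852 (78.7%), both for 682 (63.0%) and neither for 64 (5.91%). For circRNAs of 50 to 100 kb in 1 coding gene both ends were shared in 60.5%, and for all under 100000 bp in 33.8%, without adjustment for the number of circles per gene. A member held a median of 17.5% of the reads through its upstream end and 20.5% of those through its downstream end, against 78.7% and 89.1% for circles under 100000 bp. For circRNAs of 50 to 100 kb the medians were 21.9% and 26.1%, so low shares were not particular to the members. In several hosts 1 upstream end carried most long-span reads. In Atxn1 an end 8.42 kb into the gene was used by 11 members with 94.1% of the gene's long-span reads. In Slc10a7, a membrane transporter family gene needed for skeletal development, an end at 6.26 kb served 8 of 11 members and 98.6% of the reads. The corresponding ends lay at 9.35 kb in Tasp1 (8 of 15 members, 95.5%), 6.76 kb in Cdk14 (8 of 28, 76.2%) and 167 kb in Cpq (7 of 9, 99.6%). The Setbp1 end at 23.3 kb carried 98.2% of its long-span reads. It served 19 circles of all spans with 47656 reads, of which 2536 were long-span. Hosts differed in this: in Foxp1 the upstream end with the most members served 7 of 41 and held 16.0% of the long-span reads. In Fam172a a downstream end, used by 4 of 8 members, held 95.9%.

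The members held 62497 of 4278181 junction reads (1.46%), less than their 2.65% share of the circRNAs, and reads were concentrated: the 10 most-read members held 31.9%. In all, 694 members (64.1%) were read in 1 library only and 133 (12.3%) in all 4, and those 133 held 76.4% of the members' reads. Among circRNAs under 100000 bp the shares were 57.6% and 17.4%. Counted by reads, 3.64% of 165 members with 20 to 49 reads and 5.14% of 6261 shorter circles were in all 4 libraries. With at least 50 but under 200 reads they were 62.6% of 115 members and 62.4% of 5379 shorter circles, and with 200 or more 98.2% of 56 and 98.1% of 2987. The 2 IL-1β libraries shared 194 members (29.8% of those in either). The controls shared 222 (29.1%), and a library of one group shared 26.6% to 29.97% with a library of the other, so the values within groups lay inside the range of those across groups. Both treated libraries and no control held 22 members, and 36 were the other way round, beside 14 to 36 read in both libraries of a pair across the groups and in neither of the others.

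The first question was whether IL-1β changed how much of the circRNA output came from long spans. Of junction reads, long-span circles held 1.33% and 1.36% in treated cells, and the controls stood at 1.57% and 1.52%. Both IL-1β values lay below both control values, 1.35% ± 0.0233 against 1.55% ± 0.0367 (mean ± SD, n = 2 each), a ratio of 0.871. The exact permutation test, two-sided, gave p = 0.3333, the smallest that 2 against 2 allows, so no difference can pass here. By number, long-span circles made up 2.33% and 2.25% of the circRNAs read with IL-1β and 2.63% and 2.46% in control (exact permutation test, two-sided, p = 0.3333). These are bulk samples, so fewer cells of a type and less RNA per cell cannot be told apart. Without the 10 most-read members the shares were 0.904% and 0.919% against 1.11% and 1.01%, and over the 133 members read in every library 1.04% and 1.04% against 1.18% and 1.17%. The 297 hosts together gave less of the circRNA output with IL-1β, 24.3% and 24.4% against 26.2% and 26.2%, and within their output the long-span part was 5.47% and 5.60% against 6.00% and 5.81%. Neither the host total nor the part within it overlapped between the groups.

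**Figure D2:**
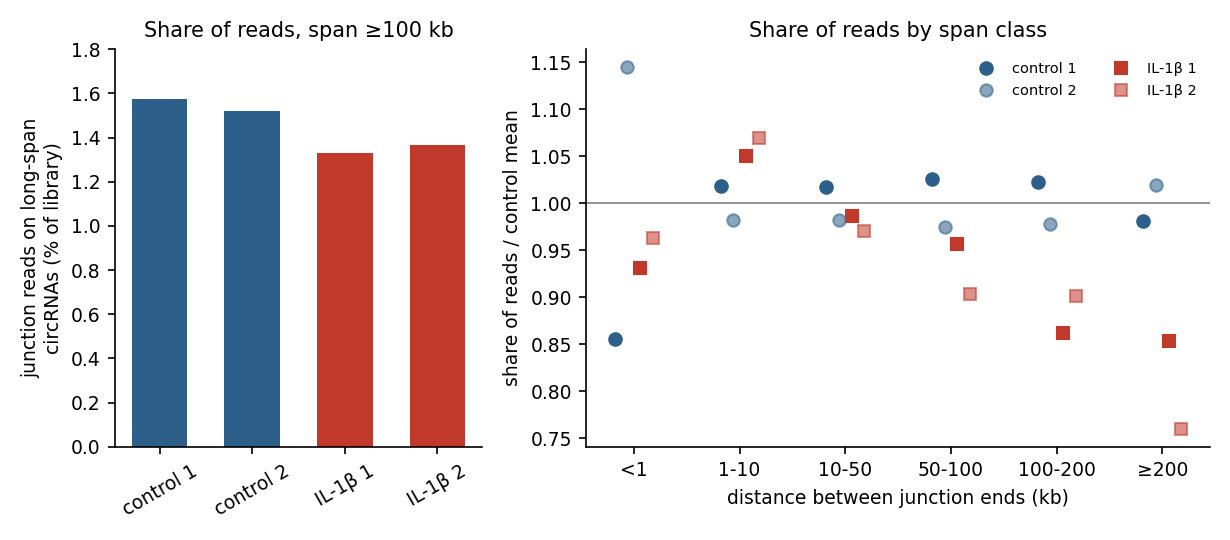
The bars give the percent of each library's junction reads on long-span circRNAs, and the points give each library's share of reads in 6 span classes divided by the control mean (circles control, squares IL-1β). The IL-1β bars stand at 1.33% and 1.36% and the control bars at 1.57% and 1.52%, and the mean of the IL-1β points is below 1 from 10 kb upwards and falls to 0.807 for spans of 200 kb or more.

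By span class, IL-1β over control, the mean share of reads was 0.947 for circles under 1 kb, 1.06 for 1 to 10 kb, 0.978 for 10 to 50 kb, 0.930 for 50 to 100 kb, 0.881 for 100 to 200 kb and 0.807 for 200 kb or more. The 2 long-span classes had the lowest ratios, and the order was not even below them, since the shortest class lay under the 10 to 50 kb class. In the shortest class the controls lay on both sides of the IL-1β values (8.57% and 11.5% against 9.33% and 9.66%). In the 2 long-span classes the groups did not overlap: 1.15% and 1.20% against 1.36% and 1.30% for 100 to 200 kb, and 0.183% and 0.163% against 0.211% and 0.219% above. This was not particular to them. The groups also lay apart for 50 to 100 kb (5.07% and 4.79% against 5.43% and 5.17%). They did so in the other direction for 1 to 10 kb (37.4% and 38.1% against 36.2% and 35.0%). No test of the trend was made, because the classes share the same 4 libraries.

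Single circles were compared with edgeR's quasi-likelihood test over all 15333 circRNAs with at least 20 reads. Of the members 336 passed that read filter, with 89.8% of the members' reads, and 747 did not. Since the controls were sequenced more deeply, a circle read mainly in control reached 20 reads more easily, so the counts over those 336 describe them and no more. None passed an adjusted p of 0.05, against 0.0196% of all tested circRNAs, and the smallest adjusted p among members was 0.886. Unadjusted, 15 (4.46%) had a p under 0.05, against 3.44% of all tested. Of these 10 were lower and 5 higher with IL-1β, beside 1.62% and 1.83% of all tested, and without IL-1β 1 there were 8. DESeq2 put 3 members past an adjusted p of 0.05, all lower with IL-1β, against 0.659% of all tested. Among them, circRNA.7481 passed the read filter only through the controls.

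Of the 336, 211 (62.8%) had a negative log2 change, meaning lower with IL-1β, against 51.7% of all tested circRNAs. Their median log2 change was -0.38 against -0.05. Both IL-1β values lay below both control values for 78 members (23.2%, against 17.2% of all tested), and above for 39 (11.6%, against 16.4%). Among circRNAs with at least 200 reads, 37 of 56 members (66.1%) had a negative change, with a median of -0.20, against 50.8% and -0.01 for all 3100 such circRNAs. By span, the share with a negative change was 44.4% under 1 kb, 49.5%, 52.8% and 58.1% in the next classes, 61.8% of 283 members of 100 to 200 kb and 67.9% of 53 of 200 kb or more. Only 5 of the last class had at least 200 reads, and of these 2 were lower and 3 higher. In each of the 13 settings compared, the main one included, the members' median was below that of all circRNAs tested in that setting.

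**Figure D3:**
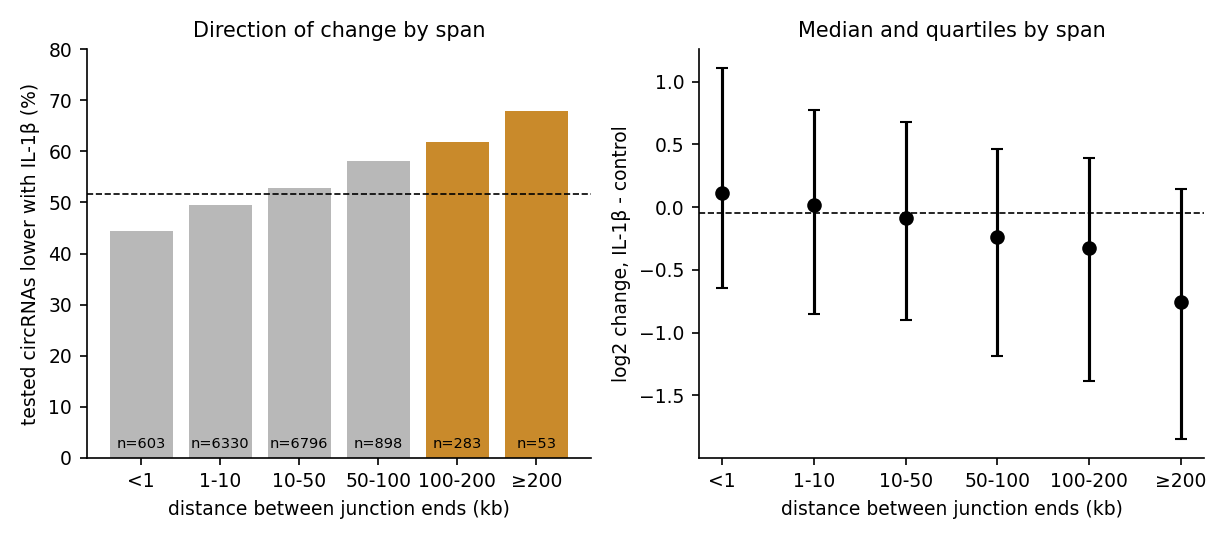
The bars give the percent of tested circRNAs with a lower value with IL-1β in 6 classes of span, orange for 100 kb or more, with the number tested, and the points give the median log2 change with the quartiles as bars. The dashed lines mark all 15333 tested circRNAs, 51.7% and -0.05, and the percent rises from 44.4% in the shortest class to 67.9% in the longest.

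The most abundant member was circRNA.9982 of Cpq, a secreted carboxypeptidase (chr15:33249926-33381447, plus strand, 131522 bp). It had 949 and 931 reads (IL-1β) against 1057 and 1669 (control). The groups overlapped once scaled, at 999 ± 62.9 and 1135 ± 326 CPM (mean ± SD, n = 2 each), a log2 change of -0.19 ± 0.26 (SE). A longer circle from the same upstream end, circRNA.9988 (247439 bp), had 160 and 145 reads (IL-1β) against 306 and 347 (control). Both of its IL-1β values were low, 162 ± 19.3 against 273 ± 15.6 CPM, with an adjusted p of 0.886 in edgeR.

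Atxn1 gave nearly all of its circles' reads from long spans, 94.9% over the libraries and 92.1% to 97.2% in each. Its leading circle circRNA.7492 (chr13:45795509-45956575, minus strand, 161067 bp) had 400 and 652 reads (IL-1β) against 714 and 526 (control), and circRNA.7484 (221461 bp) had 336 and 388 against 526 and 427. In both, the groups overlapped after scaling, with log2 changes of 0.09 ± 0.31 and -0.06 ± 0.26. A further circle from the same upstream end, circRNA.7481 (chr13:45723236-45956575, minus strand, 233340 bp), was not read in either treated library and had 36 and 52 reads in the controls. Against a floor of 3 reads per library, that is 11.5-fold lower with IL-1β. This bound covers counting error only and not the spread between libraries. It was the lowest p among the members (unadjusted 0.00728, adjusted 0.886 in edgeR, adjusted 0.0147 in DESeq2). The circle passed the read filter only through the controls, so these values are a description.

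The Setbp1 circle circRNA.15835 (chr18:78923989-79087180, minus strand, 163192 bp) was the second in abundance. Setbp1 encodes a nuclear protein that binds SET. It had 411 and 367 reads (IL-1β) against 915 and 817 (control), 414 ± 53.5 against 726 ± 80.9 CPM. Both IL-1β values were below both controls, 1.75-fold on average, with a log2 change of -0.81 ± 0.24 and an adjusted p of 0.886 in edgeR and 0.0270 in DESeq2. The Bnc2 circle circRNA.28021 (chr4:84390889-84555904, minus strand) had 167 and 191 reads against 326 and 463, 1.73-fold lower with IL-1β and again without overlap (adjusted p = 0.886 in edgeR). The Arhgap10 circle circRNA.37615 (107649 bp), from a gene for a GTPase-activating protein, had 300 and 302 reads against 572 and 527, 1.44-fold lower and without overlap.

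Other abundant members did not separate downwards. The Slc10a7 circle circRNA.37745 (191363 bp), which covers 85.2% of its gene, had 333 and 368 reads (IL-1β) against 388 and 525 (control), and the groups overlapped after scaling. The Cdk14 circle circRNA.30647 (178212 bp) had 217 and 298 against 224 and 289, with both scaled IL-1β values above both controls and a log2 change of 0.34 ± 0.29.

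**Figure D4:**
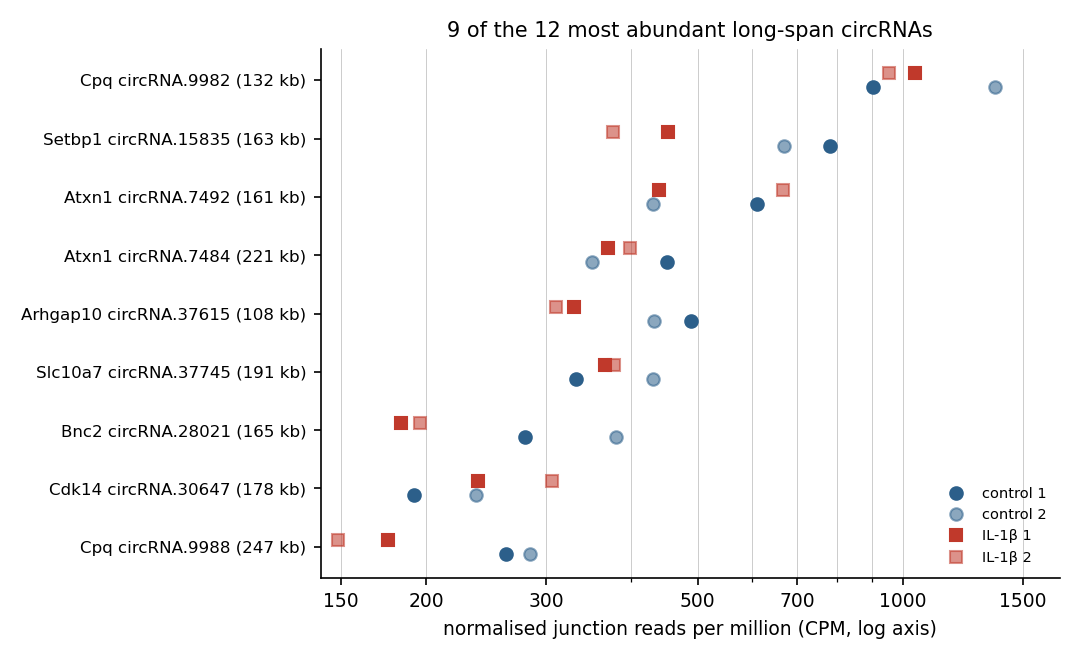
Normalised junction reads (CPM) on a log axis for 9 of the 12 most abundant long-span circRNAs, with 1 point per library (circles control, squares IL-1β). Both IL-1β points lie to the left of both control points for the circles of Setbp1, Arhgap10 and Bnc2 and for circRNA.9988 of Cpq.

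Among the members with the lowest p on the lower side, circRNA.7906 of Fam172a (chr13:77902654-78006472, plus strand, 103819 bp) had 77 and 61 reads (IL-1β) against 414 and 180 (control). The groups did not overlap, at 73.6 ± 15.6 and 251 ± 146 CPM, 3.41-fold lower, with a log2 change of -1.77 ± 0.49 and an adjusted p of 0.886 in edgeR and 0.0185 in DESeq2. It passed in edgeR when circRNAs with at least 5 reads were tested (adjusted p = 0.0137), and without control 1 its log2 change was -1.03. The circle circRNA.39035 of Bbs9, part of the complex that carries proteins to cilia, had 6 and 19 reads against 140 and 37, and control 1 alone held most of them. The Lpp circle circRNA.11748 (122280 bp) was read in neither treated library but had 15 and 41 reads in the controls. Against the floor of 3 reads per library, which leaves out the spread between libraries, that is 7.28-fold lower. It passed the read filter only through the controls, so these values are a description.

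On the higher side, circRNA.27838 of Pappa, a protease that frees insulin-like growth factors from a binding protein (chr4:65155617-65262041, plus strand, 106425 bp), had 46 and 48 reads (IL-1β) against 15 and 15 (control). That is 49.9 ± 0.965 against 12.6 ± 0.397 CPM, 3.97-fold higher, with an adjusted p of 0.886 in edgeR. The Foxp1 circle circRNA.33681 (chr6:99162839-99399717, minus strand, 236879 bp) had 94 and 90 reads against 38 and 67, 2.24-fold higher. The Fars2 circle whose acceptor is printed above, circRNA.7370, from a gene for a mitochondrial tRNA synthetase, had 25 and 26 reads in the treated libraries and none in the controls, at least 10.8-fold higher. Circles of Gpc6 (circRNA.8290) and Exoc4 (circRNA.32447) also had 0 reads in both controls. With IL-1β they had 6 and 35, and 26 and 9, reads, so most reads of each came from 1 library. The circles of Fars2, Gpc6 and Exoc4 passed the read filter only through the treated libraries, so their values are a description.

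The next question was whether the long-span output of a gene changed, summed over its members so that the division of reads between neighbouring junctions does not matter. Of the 297 hosts 167 had at least 20 long-span reads. The controls were deeper, so a host read mainly in control reached that number more easily. At an adjusted p of 0.05 the quasi-likelihood fit in edgeR called none, as it did 0% of all 4979 sums tested, and 5 (2.99%) had an unadjusted p under 0.05, against 4.52%. DESeq2 put 1, Setbp1, past an adjusted 0.05, against 0.864%. Values were lower with IL-1β for 110 of the 167 (65.9%, against 52.2% of all sums), with a median log2 change of -0.38 against -0.03. Both IL-1β values lay below both controls for 56 (33.5%, against 18.1%) and above for 15 (8.98%, against 17.7%).

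Among the hosts with the most long-span reads, Cpq and Atxn1 stood at 1247 ± 81.9 and 1359 ± 102 CPM in treated cells against 1478 ± 385 and 1303 ± 251 CPM, and both overlapped between the groups. Tasp1 stood at 616 ± 70.1 and 759 ± 43.5 CPM, Arhgap10 at 570 ± 61.9 and 760 ± 92.1, Setbp1 at 420 ± 45.5 and 752 ± 87.1, and Bnc2 at 313.5 ± 20.5 and 404 ± 68.3, with IL-1β below control in every library of these 4. Slc10a7 (638 ± 18.0 and 581 ± 71.6) and Cdk14 (507 ± 37.2 and 405 ± 10.3) had higher means with IL-1β, and the groups overlapped for Slc10a7 but not for Cdk14. Hosts with the lowest p on the lower side were Setbp1, Fam172a (200 ± 5.88 and 354 ± 124 CPM), Bbs9 (59.3 ± 3.07 and 165 ± 115) and Tenm4, a teneurin adhesion receptor (31.4 ± 2.30 and 83.7 ± 28.7). On the higher side they were Pappa (64.7 ± 21.95 and 15.6 ± 4.63), Foxp1 (295 ± 25.1 and 181 ± 40.4), AW554918 (97.2 ± 4.05 and 48.0 ± 21.6) and Hdac8, a histone deacetylase family gene with 34 reads in IL-1β 2 and 0 elsewhere. The shorter circles of 3 of the 4 genes on the lower side also had lower values with IL-1β. In Setbp1 the log2 change was -0.87 for the long-span sum and -0.65 for the shorter sum (unadjusted p = 0.00433 and 0.00978, edgeR), in Bbs9 -1.48 and -0.53 (0.0249 and 0.0178), and in Tenm4 -1.45 and -1.33 (0.0315 and 0.000473, the shorter sum having the lower p). Fam172a differed in sign, with -0.84 and 1.11 (0.0229 and 0.0388). On the higher side the shorter sums had log2 changes of -0.07 in Pappa, 0.22 in Foxp1, 0.40 in AW554918 and -0.40 in Hdac8. None of these sums passed an adjusted p of 0.05 in edgeR.

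Long spans were a small part of most hosts' circles: the median over the 297 hosts was 3.06% of a host's junction reads. Of the 47 hosts with at least 200 long-span reads, 10 gave more than 50% of their reads from long spans, among them Atxn1 (94.9%), Rbms3 (82.9%), the homeobox gene Meis2 (80.1%), Fam172a (77.0%) and Bnc2 (50.8%), and 15 gave under 10%, such as Arhgap10 (2.23%) and Setbp1 (5.39%). In Fam172a, an example chosen after its values were seen, the share was 61.2% and 62.8% with IL-1β and 86% and 86.9% in control.

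Whether the share shifted was tested in each of 166 hosts with at least 20 reads in both classes, by an edgeR model with each library as a block. The model was added after the data had been seen. Against the gene's own shorter circles, long-span circles were lower with IL-1β in 106 of 166 hosts, with a median log2 difference of -0.29. None passed an adjusted p of 0.05 (smallest 0.611), and 13 had an unadjusted p under 0.05 (7.83%, all hosts tested here being hosts of members). Most of the 13, such as Fto and Med13l, had no long-span reads in either library of a group. They reached 20 reads only through the group where they were read, and the controls were deeper. The counts over the 166 are therefore a description. Of the 13, Arhgap10 had the most reads, with 558 and 513 long-span reads against 964 and 849, and 27910 and 29611 shorter reads against 35209 and 33475, a log2 difference of -0.50 ± 0.15. Pappa went the other way, with 73 and 48 against 22 and 15 long-span reads, and 1473 and 1693 against 1936 and 2187 shorter ones, a log2 difference of 2.07 ± 0.57. In Thada, 11 and 20 long-span reads stood against 59 and 59. Fam172a was not among the 13 (unadjusted p = 0.0518, adjusted p = 0.614 in this edgeR model).

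**Figure D5:**
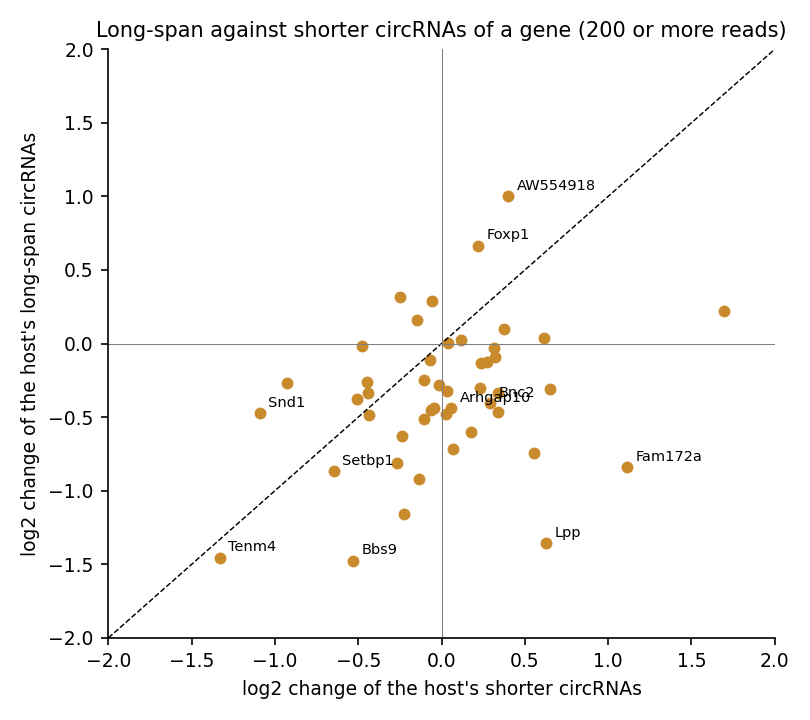
For the 47 hosts with at least 200 long-span reads, the log2 change (IL-1β minus control) of the summed long-span circRNAs is plotted against that of the same gene's shorter circRNAs, and the dashed line marks equal change. Of these points 36 lie below the line and 37 lie below 0.

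Lists of genes were described by counts. Of all 167 long-span host sums 65.9% had lower values with IL-1β, with a median log2 change of -0.38. No list was tested against that share. Of 42 adhesion, guidance and phosphatase receptor genes 7 had members, 6 of them testable, and 5 of the 6 had lower values with IL-1β (median log2 change -1.27). Its leading hosts were Tenm4, the receptor phosphatases Ptprm (28.5 ± 4.59 with IL-1β and 60.0 ± 10.8 CPM in control) and Ptprg (2 and 0 reads against 14 and 25), and the adhesion protein Kirrel3 (20.7 ± 1.77 and 31.4 ± 2.77). Of 58 trafficking, degradation and organelle genes 22 had members, and 13 of 18 testable hosts had lower values (median -0.43). Its leading hosts were the F-box gene Fbxl17 (298 ± 4.96 and 379 ± 22.4), Exoc4 (284 ± 38.8 and 388 ± 38.9), Dennd1a (233 ± 23.7 and 323 ± 83.6) and the scaffold gene Gphn (43.6 ± 39.9 and 60.2 ± 30.6). No host of a list given here passed an adjusted p of 0.05 in edgeR, and Setbp1, in the next list, did so in DESeq2.

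In the transcription and chromatin list 26 of 56 genes had members, with 7 higher and 8 lower values among 15 testable hosts (median -0.31). Setbp1, Foxp1, Nfib, a nuclear factor I gene (110 ± 3.18 with IL-1β and 148 ± 14.7 CPM in control), and Meis2 (101 ± 32.5 and 125 ± 74.4) led it. In the matrix, growth factor and TGF-beta list 10 of 59 genes had members, and 4 of 6 testable hosts had higher values (median 0.56): the leading hosts were the growth hormone receptor gene Ghr (127 ± 48.3 and 136 ± 106), Pappa, Fndc3b (57 and 5 reads against 0 and 22) and the latent TGF-beta binding protein gene Ltbp1 (9 and 16 reads against 2 and 20). In the cyclic nucleotide, calcium and lipid kinase list 9 of 45 genes had members, and 5 of 6 testable hosts had lower values (median -0.91), among its hosts the phospholipase gene Plcb4 (53.8 ± 12.3 and 79.9 ± 2.80), the calcium channel gene Cacna1c (59.8 ± 5.30 and 73.1 ± 7.75) and the kinase gene Camk2d (22 and 0 reads against 25 and 41). Of 36 RNA-binding and circRNA biogenesis genes 5 had members and 3 were testable, all lower (median -0.92): Rbms3 (54.0 ± 3.33 and 98.6 ± 62.0), Cpeb3 (16 and 11 reads against 5 and 58) and the splicing factor gene Rbfox2 (0 and 8 against 10 and 25), and Celf2 had too few reads (9 and 7 against 3 and 0). None of the 41 NF-kB and IL-1 response genes had a long-span circle, although 32 of them gave circles. A gene shorter than the span limit cannot hold a member, and the lengths of the genes in this list are not given here. Among coding genes that reached the limit and gave circles, 20.7% had a member. Whether the absence is particular to this list, given gene length, was not tested.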

How the data were processed

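The authors deposited back-splice junction reads as whole-number counts per circRNA and library, per the file headers, and SRPBM, a depth-scaled signal, also per the file headers, which divides the counts by 1 constant per library. The mm10 genome and Bowtie2 are named, per the submitters' processing notes. For the circRNA caller, its filters and duplicate handling, nothing is given in the sources used here. Hosts, promoter sequences and gene limits came from RefSeq on GRCm38.p6. No exon positions or genome were used.

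The count model was edgeR 4.0.16 (R 4.3.3), with the quasi-likelihood test and TMM factors (at least 20 reads over the libraries, Benjamini-Hochberg adjustment over the whole table), for circRNAs and for each host's long-span and shorter sums. Standard errors are the log2 change over the square root of F. DESeq2 1.42.0 was an alternative. Other values used Python 3.11.15 with scipy 1.17.1. The fits were also run on simulated data. There the changed circRNAs had at least 200 reads and every circRNA had the same spread, so members with few reads are not covered by that run. Named circRNAs and hosts follow a fixed rule: the 12 most abundant, the 6 with the lowest p in each direction, the 5 longest, the 5 just above the span limit, the 10 hosts with the most members or reads, the 4 hosts with the lowest p in each direction and the 4 with most reads per list. Some items under this rule and 1 gene list are not reported here. The circles whose end sequences are shown, the examples of long-span against shorter circles and the genes in the closing section were chosen after their values were seen. Members and lists were chosen with earlier results of these data known.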

Additional observations from a re-analysis of the deposited data

How the results depend on the processing

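With 2 libraries a group, precision rests on few values, and 747 of the 1083 long-span circRNAs had under 20 reads and were not tested. The share of reads and of circRNAs kept its direction in every setting run. Members past an adjusted p of 0.05 numbered 0 in edgeR as first fitted, 3 with DESeq2 (0.893%, against 0.659% of all tested), 3 with at least 5 reads (0.329%, against 0.180%) and 3 with the replicate block (0.893%, against 0.398%), and 0 with junctions within 5 nt summed, a setting added after the data had been seen. CircRNA.7906 was among the 3 in each, with an adjusted p of 0.00751 under the block. Those with an unadjusted p under 0.05 numbered 15, 33 with DESeq2 (9.82%, against 8.99% of all tested) and 8 to 18 when 1 library was left out (2.64% against 2.78% without IL-1β 1, 6.72% against 7.96% without control 1). Host sums past an adjusted p of 0.05 numbered 0, and 1 with DESeq2. The replicate numbers share only a number: deviations of same-numbered libraries had a Pearson r of -0.03 over 3100 circRNAs with at least 200 reads, and no cause of the block's calls was tested. Scaling by the deposited SRPBM depth moved the median of all tested circRNAs from -0.05 to -0.28 and that of the members from -0.38 to -0.64.

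Some log2 changes reversed, none of them past the threshold. CircRNA.7492 was -0.18 with SRPBM scaling, and the Ghr sum was 0.077 with the replicate block. Leaving out 1 library in turn gave ranges of -0.23 to 0.11 for circRNA.7484, -0.26 to 0.34 for circRNA.7492, -0.48 to 0.14 for circRNA.9982 and -0.24 to 0.16 for circRNA.37745. For host sums the ranges were -0.086 to 0.23 for Atxn1, -1.75 to 1.77 for Cpeb3, -0.53 to 0.089 for Cpq, -0.88 to 8.14 for Fndc3b, -0.68 to 1.03 for Ghr, -1.997 to 0.21 for Gphn, -0.36 to 2.89 for Ltbp1, -0.77 to 0.44 for Meis2, -1.44 to 0.018 for Rbms3 and -0.028 to 0.30 for Slc10a7. The cause was not tested.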

Other observations

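Near-identical junctions were few among long-span circles: 12 of the 1083 had a partner within 5 nt at both ends. In Dennd1a, circRNA.23154 had 55 reads in IL-1β 2 and 0 elsewhere beside circRNA.23155 with 91 and 95 against 150 and 110, at an upstream end 4 nt away.

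Of 166 hosts with at least 20 long-span and 20 shorter reads, 10 had long-span reads in both controls and neither IL-1β library and 3 the reverse, beside 1 to 5 for each pair of libraries across the groups. The controls were deeper, and these hosts reached 20 reads only through the group where they were read, so the counts are a description. None passed an adjusted p of 0.05 in edgeR. Fto, an RNA demethylase gene, had no long-span reads in treated cells but 20 and 11 in the controls, beside 396 and 421 against 659 and 636 shorter reads. Magi1, a junction scaffold, had 0 against 21 and 6, Tanc2 0 against 22 and 11 and Tox 0 against 19 and 9. The mediator gene Med13l had 11 and 11 with IL-1β and 0 in control, and the membrane protease gene Mmp16 16 and 6 against 0.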
